A study of Mus musculus with 5 samples.

Results

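The genes described here encode the secreted and membrane-bound parts of the Wnt pathway: Wnt ligands, the enzyme that lipidates them, their receptors, the R-spondin branch that adjusts receptor number, and secreted inhibitors. They were taken by name (Wnt, Fzd, Sfrp, Dkk and Rspo genes with a number, and Frzb, Wif1, Lrp5, Lrp6, Lgr4, Lgr5, Rnf43, Znrf3 and Porcn), which gave 50 of 18193 genes on the array, with 93 of 45037 probe sets. Where a gene had several probe sets, the one with the highest mean on the 5 arrays stood for it. RNA came from E14 mouse embryonic stem cells, 3 samples labelled Trip12 mut/mut and 2 samples labelled wild type (WT). All 5 were grown on mouse embryo fibroblast feeder layers with leukaemia inhibitory factor, 14% serum replacement and 1% fetal bovine serum. The samples carry biological replicate numbers, but whether they were separate cultures or clones, what the mutation is, and whether feeders were removed before extraction are not given in the sources used here. P-values therefore measure the spread between these samples, which may be technical. Values are log2 RMA values, in which the probes of a probe set are background-corrected, normalised between arrays and summarised. A difference is Trip12 mut/mut minus WT on that log2 scale. Because probes differ in brightness, levels are compared between arrays and not between genes.

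Wnt proteins are lipid-modified secreted ligands that bring a Frizzled receptor and the co-receptor Lrp5 or Lrp6 together, after which beta-catenin is spared from destruction and acts in the nucleus with Tcf and Lef factors. Other Wnt proteins, Wnt5a among them, act largely through Frizzled and Ror receptors without beta-catenin. Secreted Frizzled-related proteins (Sfrp genes and Frzb) and Wif1 bind Wnt ligands outside the cell, whereas Dkk1 blocks Lrp5 and Lrp6. R-spondins bind Lgr4 and Lgr5 and remove the ubiquitin ligases Rnf43 and Znrf3, which otherwise take Frizzled receptors off the surface. In mouse embryonic stem cells, Wnt signalling through beta-catenin helps to keep the naive state. Trip12 encodes a ubiquitin ligase of the HECT type.

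The array labelled Trip12 mut/mut replicate 1 stood with the WT arrays. Its Trip12 value, at the brightest of 7 probe sets, was 10.18, beside 12.09 and 12.57 on replicates 2 and 3, against 10.17 and 10.25 on the WT arrays. Across all probe sets it correlated with the WT arrays at 0.9989 and 0.9988, and 0 probe sets differed from either by over 2-fold, whereas replicates 2 and 3 differed from a WT array by over 2-fold at 293 to 545 probe sets. The same split held for the Wnt genes. Over all 50, the median distance from the WT mean was 0.06 on the array labelled replicate 1, 0.19 on replicate 2 and 0.21 on replicate 3, and the median distance between the WT arrays was 0.08. Counts and the larger differences are therefore given both with all 5 arrays and without that array. Since it was set aside for its values, p-values without it are too favourable.

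Over all 5 arrays, 0 of the 50 Wnt genes passed the test, as did 0% of all 18193 genes (limma, smallest adjusted p = 0.748). An unadjusted p under 0.05 was found for 2 Wnt genes, Frzb and Wnt6, and for 214 of all genes. With the array labelled replicate 1 left out, again 0 of 50 and 0% of all genes passed, with 15 Wnt genes and 3730 genes below an unadjusted 0.05. When genes that were dim on the remaining arrays were also removed, 27 Wnt genes were tested and 4 passed, beside 4.64% of the 11626 genes. Of these 4, Sfrp2 and Lgr4 fell, where 1.34% of genes did, and Fzd1 and Wnt9a rose, where 3.29% did. Sfrp2 was lower by a factor of 2.23 and Lgr4 by 2.0, and Fzd1 was higher by 1.64 and Wnt9a by 1.46. The test over single probe sets with the same arrays and filter called 0 of 41 probe sets of Wnt genes and 0.066% of all probe sets.

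The Wnt genes did not shift together. Their median difference was -0.0053 over all 5 arrays and -0.013 with the array labelled replicate 1 left out, where the medians over all genes were 0.019 and 0.021. Over all 5 arrays the groups did not overlap for 9 of 50 genes, 5 higher and 4 lower, beside 12% of all genes (5.73% higher and 6.29% lower). Replicates 2 and 3 alone were separate from both WT arrays for 26 genes (52%), 11 higher and 15 lower, beside 44.2% of all genes (26.7% higher and 17.5% lower). The median value over all probe sets and arrays was 5.52, and 27 Wnt genes had a group mean at or above it. The other 23 were dim in both groups.

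**Figure D1:**
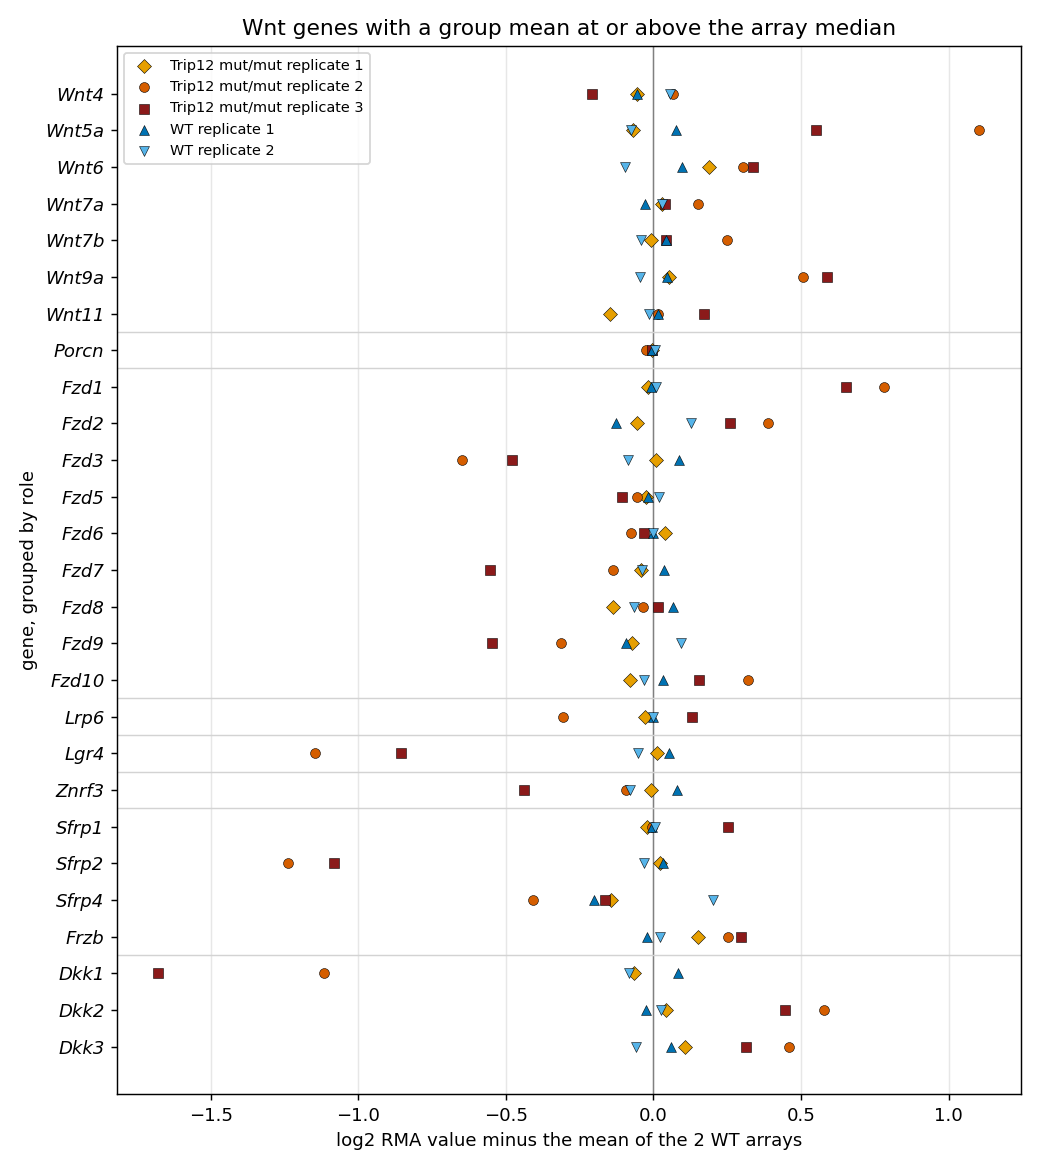
Each point is the log2 RMA value of a Wnt gene on 1 array minus the mean of the 2 WT arrays (x axis), for the 27 genes with a group mean at or above 5.52, grouped by role from ligands at the top to Dickkopf genes at the bottom (y axis). Diamonds, the array labelled Trip12 mut/mut replicate 1, lie within 0.19 of the WT mean, while replicates 2 and 3 reach from -1.68 (Dkk1) to 1.10 (Wnt5a).

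Markers of other cell types moved on the same 2 arrays as the Wnt genes, first those of the feeder cell type. Of 29 fibroblast markers, 22 were above both WT arrays on replicates 2 and 3 and 1 was below, beside 26.7% and 17.5% of all genes, with a median difference of 0.54 with the array labelled replicate 1 left out and 0.35 over all 5 arrays. Their signal summed on the linear scale was 60331, 88670 and 86844 on Trip12 mut/mut replicates 1, 2 and 3, against 60542 and 61379 on the WT arrays. All 29 had a group mean above the array median. With that array left out and dim genes removed, 8 passed as higher and 1 as lower, beside 3.29% and 1.34% of genes. The 1 that passed as lower was Cnn1, also the 1 below WT, with a difference of -1.095 (limma adjusted p = 0.0402). Col1a1, Col6a2, Pdgfra, Lum, Mmp2 and Tagln overlapped WT on replicates 2 and 3. Of 15 primitive endoderm markers, 9 were above and 2 below both WT arrays on replicates 2 and 3. Their linear sums were 9588, 13935 and 13159 in Trip12 mut/mut, against 9512 and 9765 in WT, and their median difference was 0.19 over all 5 arrays and 0.28 with the array labelled replicate 1 left out. The 4 of them that passed with dim genes also removed were Col4a1, Col4a2, Sparc and Srgn, 3 of which encode basement membrane or matrix proteins that fibroblasts also make. The endoderm factors Gata4, Sox17 and Foxa2 had group means below the array median, and Sox17 and Foxa2 were the 2 below WT. Gata6 was above the median, with 7.22 and 7.32 on replicates 2 and 3, against 7.05 and 7.04 in WT. It was below both WT arrays on the array labelled replicate 1. Dab2 and Lama1 were higher by 0.57 and 0.43 with that array left out. Gata6, Dab2 and Lama1 did not pass with dim genes removed (limma adjusted p = 0.152, 0.0648 and 0.171). Sox7 read 5.54 on all 5 arrays. The labelled cell type was also seen, with 20 of 20 pluripotent stem cell markers above the median. Their linear sums were 68144, 60961 and 64898 in Trip12 mut/mut, against 67879 and 68232 in WT, and 5 were above and 9 below both WT arrays on replicates 2 and 3. Utf1 and Lin28a passed as lower on those arrays with dim genes removed (limma adjusted p = 0.0422 for both). The 5 above were Esrrb, Klf5, Tfcp2l1, Tbx3 and Dppa5a, of which 0 passed in the same fit, with adjusted p = 0.0501 for Esrrb. Pou5f1, Nanog, Sox2 and Zfp42 differed by -0.13, -0.17, -0.18 and -0.065 there. Fibroblasts themselves express several Wnt genes, but which of the genes below they expressed here was not measured. The part of RNA from fibroblasts or endoderm in the differences below was not tested, and in RNA of a mixed culture a change in the number of cells of a type cannot be told apart from a change in RNA per cell.

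**Figure D2:**
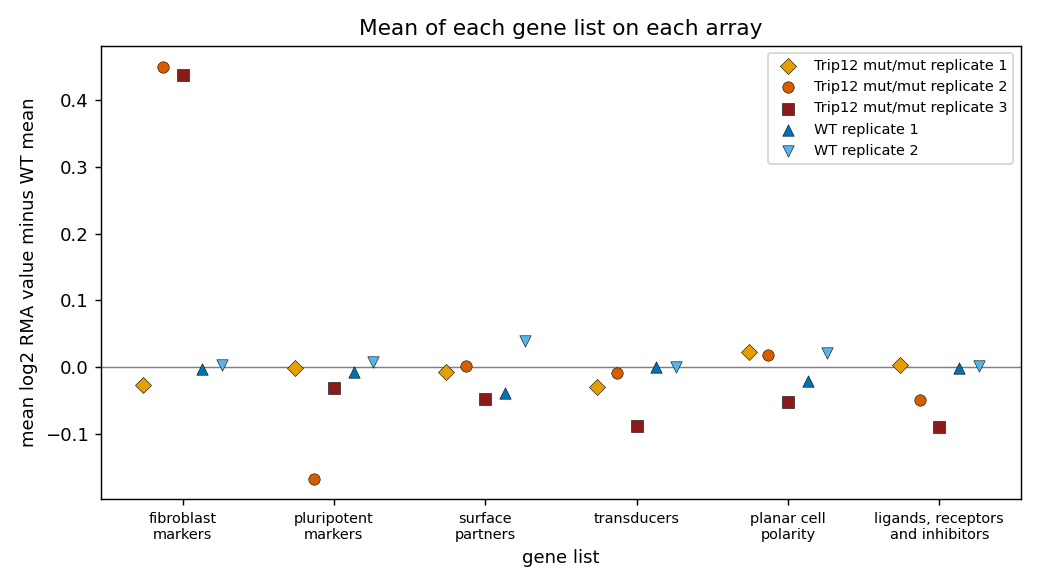
Mean log2 RMA value of each gene list (x axis) on each array, minus the mean of the 2 WT arrays (y axis). The fibroblast markers are higher on Trip12 mut/mut replicates 2 and 3, and the Wnt ligands, receptors and inhibitors stay within 0.1 of WT on every array.

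Among ligands, 7 of 19 were above the array median. Wnt9a, which in mice acts in joint and skeletal development, read 6.74, 7.20 and 7.28 on Trip12 mut/mut replicates 1, 2 and 3, against 6.74 and 6.65 on the WT arrays. Replicates 2 and 3 were high, and the array labelled replicate 1 exceeded the higher WT array only in the third decimal. The difference was 0.38 over all 5 arrays (SE 0.19, adjusted p = 0.748) and 0.55 without that array (SE 0.08, adjusted p = 0.0495 with dim genes removed, 0.0834 over all genes). Wnt5a, the ligand best known for signalling without beta-catenin, read 9.76, 10.93 and 10.38 in Trip12 mut/mut, against 9.90 and 9.75 in WT. Here replicates 2 and 3 stood 0.55 apart, more than the WT arrays did, and the difference of 0.53 over all 5 arrays (SE 0.37, adjusted p = 0.748) became 0.83 with the array labelled replicate 1 left out (SE 0.21, adjusted p = 0.103 with dim genes removed). Wnt6, a ligand of epithelia, had 6.08, 6.20 and 6.23 in Trip12 mut/mut, against 5.99 and 5.80 in WT. All 3 mutant arrays lay above both WT arrays, by a difference of 0.28 (SE 0.09, adjusted p = 0.748), which was 0.32 with the array labelled replicate 1 left out (adjusted p = 0.192).

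The remaining ligands above the median showed small differences. Wnt7a, a ligand in limb and nervous system, read 5.88, 6.00 and 5.89 in Trip12 mut/mut, against 5.82 and 5.88 in WT. Wnt7b, a ligand in lung and brain vessels, read 7.16, 7.42 and 7.22, against 7.22 and 7.13 in WT. For both genes the range of the mutant arrays was larger than the difference of the means (0.07 and 0.09). Wnt7a was above both WT arrays on replicates 2 and 3, on replicate 3 only by little. Wnt4, which takes part in kidney and ovary development, read 6.88, 7.00 and 6.73 in Trip12 mut/mut, against 6.88 and 6.99 in WT, and Wnt11, a ligand of gastrulation movements, read 5.67, 5.84 and 5.99, against 5.84 and 5.80 in WT. Mutant and WT arrays overlapped for both. Porcn, the acyltransferase that lipidates Wnt proteins, was the steadiest, with 8.22, 8.20 and 8.22 in Trip12 mut/mut, against 8.22 and 8.24 in WT.

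Frizzled receptors moved in both directions, and 9 of 10 were above the array median. Fzd1 read 9.05, 9.85 and 9.72 in Trip12 mut/mut, against 9.06 and 9.08 in WT. Replicates 2 and 3 were 1.72-fold and 1.57-fold of the WT mean, and the array labelled replicate 1 lay just below WT. The difference of 0.47 over all 5 arrays (SE 0.27, adjusted p = 0.748) became 0.72 without that array (SE 0.08, adjusted p = 0.0422 with dim genes removed, 0.0785 over all genes). Fzd2, a receptor for Wnt5a among others, read 8.84, 9.29 and 9.15 in Trip12 mut/mut, against 8.77 and 9.02 in WT, and Fzd10 read 6.14, 6.54 and 6.37, against 6.25 and 6.19 in WT. Replicates 2 and 3 were above both WT arrays for each. The differences were 0.20 and 0.13 over all 5 arrays and 0.32 and 0.24 with the array labelled replicate 1 left out, and neither passed (adjusted p = 0.186 and 0.193 with dim genes removed).

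Fzd3, a receptor needed for axon guidance in mice, was on the other side, with 7.43, 6.77 and 6.95 in Trip12 mut/mut, against 7.51 and 7.34 in WT. It differed by -0.37 over all 5 arrays (SE 0.22, adjusted p = 0.748) and by -0.56 with the array labelled replicate 1 left out (SE 0.11, adjusted p = 0.0664 with dim genes removed). Fzd7, the Frizzled known to serve pluripotent cells, read 10.26, 10.16 and 9.74 in Trip12 mut/mut, against 10.33 and 10.26 in WT. Its values were below both WT arrays on all mutant arrays, on the array labelled replicate 1 only in the third decimal, and the difference of -0.24 over all 5 arrays (SE 0.18) did not pass (adjusted p = 0.748). It was -0.35 with the array labelled replicate 1 left out and -0.089 with replicate 3 left out, so its size rests on replicate 3. Fzd9 read 5.98, 5.73 and 5.50 in Trip12 mut/mut, against 5.95 and 6.14 in WT, with replicates 2 and 3 low. It differed by -0.31 over all 5 arrays and by -0.43 with the array labelled replicate 1 left out (adjusted p = 0.124 with dim genes removed). Fzd5, a receptor of the eye and gut, read 8.46, 8.43 and 8.38 in Trip12 mut/mut, against 8.47 and 8.51 in WT. Fzd6, which acts in planar cell polarity, had 7.55, 7.43 and 7.48, against 7.51 on both WT arrays, and Fzd8 had 6.09, 6.20 and 6.25, against 6.30 and 6.16 in WT. These 3 receptors stayed within 0.14 of the WT mean on every mutant array.

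The co-receptor Lrp6 read 8.27, 8.0 and 8.43 in Trip12 mut/mut, against 8.30 on both WT arrays, so that replicates 2 and 3 lay on opposite sides of WT. Lgr4, the R-spondin receptor, had one of the larger decreases, with 10.92, 9.77 and 10.06 in Trip12 mut/mut, against 10.97 and 10.86 in WT. The array labelled replicate 1 lay between the WT values, and replicates 2 and 3 were 0.451-fold and 0.553-fold of the WT mean. The difference was -0.66 over all 5 arrays (SE 0.38, adjusted p = 0.748) and -1.0 without that array (SE 0.13, adjusted p = 0.047 with dim genes removed, 0.0847 over all genes). Znrf3, the ligase that R-spondin bound to Lgr4 removes, read 7.56, 7.48 and 7.13 in Trip12 mut/mut, against 7.65 and 7.49 in WT. Replicate 3 alone was clearly low, and the difference of -0.18 over all 5 arrays (SE 0.16) was -0.27 with the array labelled replicate 1 left out and -0.05 with replicate 3 left out.

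Secreted inhibitors did not go one way. Sfrp2 read 7.88, 6.62 and 6.77 in Trip12 mut/mut, against 7.89 and 7.83 in WT. Replicates 2 and 3 were low, at 0.424-fold and 0.472-fold of the WT mean, and the array labelled replicate 1 lay between the WT values. The difference was -0.77 over all 5 arrays (SE 0.43, adjusted p = 0.748) and -1.16 without that array (SE 0.09, adjusted p = 0.042 with dim genes removed, 0.0785 over all genes). Frzb, which is also called Sfrp3, read 6.19, 6.29 and 6.33 in Trip12 mut/mut, against 6.01 and 6.06 in WT. All 3 mutant arrays were above both WT arrays, with a difference of 0.23 (SE 0.06, unadjusted p = 0.0197, adjusted p = 0.748), which was 0.28 with the array labelled replicate 1 left out (adjusted p = 0.109). Sfrp1 had 7.17, 7.19 and 7.45 in Trip12 mut/mut, against 7.19 and 7.20 in WT, and Sfrp4 had 6.24, 5.98 and 6.22, against 6.18 and 6.58 in WT. The groups overlapped for both.

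Of the Dickkopf genes, Dkk1 was low and Dkk2 and Dkk3 were high on replicates 2 and 3. Dkk1, which blocks Lrp6 and is itself switched on by Wnt signalling in many tissues, read 5.88, 4.83 and 4.27 in Trip12 mut/mut, against 6.03 and 5.87 in WT. The difference was -0.95 over all 5 arrays (SE 0.51, adjusted p = 0.748) and -1.40 with the array labelled replicate 1 left out (SE 0.23), a level lower by a factor of 2.64 that did not pass (adjusted p = 0.106 over all genes). On replicates 2 and 3 Dkk1 was below the array median, so it met the dim filter through the WT arrays alone, and its adjusted p of 0.0534 with dim genes removed has to be read with that. Dkk2, another ligand of Lrp6, read 6.34, 6.87 and 6.74 in Trip12 mut/mut, against 6.27 and 6.32 in WT. Dkk3, a divergent Dickkopf that does not block Lrp6, read 7.15, 7.50 and 7.36 in Trip12 mut/mut, against 7.10 and 6.98 in WT. Both were above WT on all 3 mutant arrays, by 0.36 and 0.29 over all 5 arrays and by 0.51 and 0.39 with the array labelled replicate 1 left out (adjusted p = 0.0546 and 0.0933 with dim genes removed).

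**Figure D3:**
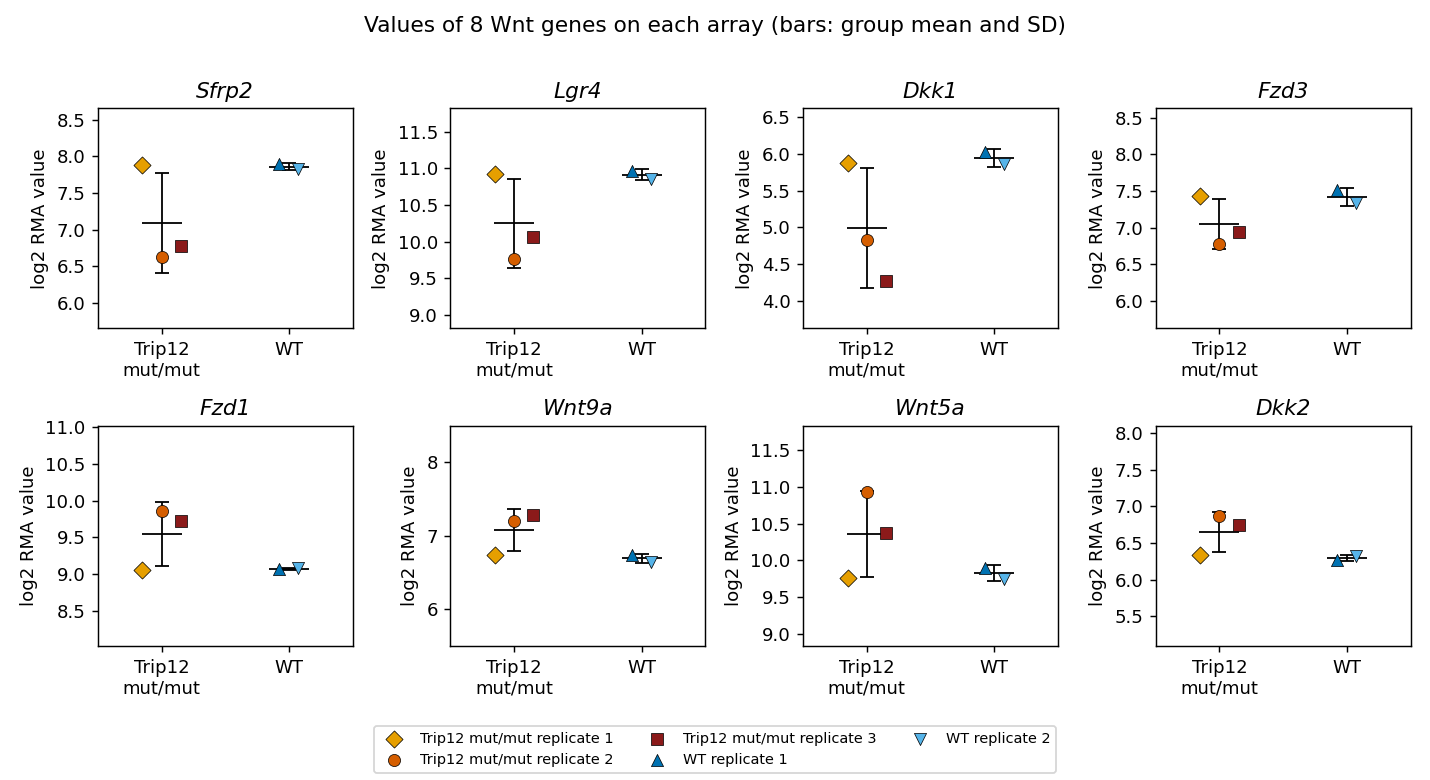
Log2 RMA value (y axis, every panel spanning the same range) of the 4 genes that passed with the Trip12 mut/mut array labelled replicate 1 left out (Sfrp2, Lgr4, Fzd1, Wnt9a) and of Dkk1, Fzd3, Wnt5a and Dkk2, with Trip12 mut/mut left of WT. Points are arrays and bars are the group mean and SD (n = 3 and 2). In each panel replicates 2 and 3 lie off the WT points and the diamond of the array labelled replicate 1 lies at about their height.

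The start regions of the 4 genes that passed and of Dkk1, which had the largest difference, are shown because these genes moved on the same arrays. Each window runs from 250 bases before to 50 after the RefSeq start, from a RefSeq table of build GRCm38.p6 that matched 31 of the 50 genes with 35 windows. Capitals mark a Tcf/Lef motif (CTTTG followed by A or T and again A or T, both strands), the octamer of Oct factors (ATGCAAAT, both strands) or a TATA box (TATAAA, forward strand). No marked matches overlap.
Sfrp2, GRCm38.p6 chr3:83766071-83766370, plus strand: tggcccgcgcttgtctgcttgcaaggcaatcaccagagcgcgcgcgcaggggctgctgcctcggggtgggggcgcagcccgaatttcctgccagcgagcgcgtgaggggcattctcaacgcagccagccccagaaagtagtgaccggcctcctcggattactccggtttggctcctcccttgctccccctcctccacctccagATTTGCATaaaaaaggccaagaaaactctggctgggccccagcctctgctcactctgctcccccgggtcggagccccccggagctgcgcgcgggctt
Lgr4, GRCm38.p6 chr2:109917397-109917696, plus strand: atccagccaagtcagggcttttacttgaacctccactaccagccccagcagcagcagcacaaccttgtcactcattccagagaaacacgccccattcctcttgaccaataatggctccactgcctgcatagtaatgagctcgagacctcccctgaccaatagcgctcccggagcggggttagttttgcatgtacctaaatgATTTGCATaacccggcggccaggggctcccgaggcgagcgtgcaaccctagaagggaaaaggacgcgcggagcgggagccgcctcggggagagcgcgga
Dkk1, GRCm38.p6 chr19:30549447-30549746, minus strand: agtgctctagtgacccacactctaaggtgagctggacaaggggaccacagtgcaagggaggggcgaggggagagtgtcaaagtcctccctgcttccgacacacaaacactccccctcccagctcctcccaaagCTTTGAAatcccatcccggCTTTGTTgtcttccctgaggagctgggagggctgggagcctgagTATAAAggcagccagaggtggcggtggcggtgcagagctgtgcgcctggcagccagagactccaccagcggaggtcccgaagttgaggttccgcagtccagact
Fzd1, GRCm38.p6 chr5:4758167-4758466, minus strand: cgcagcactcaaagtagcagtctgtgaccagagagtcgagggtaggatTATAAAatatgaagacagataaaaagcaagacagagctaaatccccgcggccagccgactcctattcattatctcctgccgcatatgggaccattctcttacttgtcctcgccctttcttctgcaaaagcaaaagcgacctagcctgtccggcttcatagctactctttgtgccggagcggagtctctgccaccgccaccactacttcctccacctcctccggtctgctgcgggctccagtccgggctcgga
Wnt9a, GRCm38.p6 chr11:59306680-59306979, plus strand: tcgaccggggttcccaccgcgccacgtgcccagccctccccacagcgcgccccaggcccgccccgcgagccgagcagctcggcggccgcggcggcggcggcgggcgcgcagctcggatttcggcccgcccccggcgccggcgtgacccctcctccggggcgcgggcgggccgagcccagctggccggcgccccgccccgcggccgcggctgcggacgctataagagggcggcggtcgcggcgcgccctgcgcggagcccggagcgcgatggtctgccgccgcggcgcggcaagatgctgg

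Both genes that passed as lower, Sfrp2 and Lgr4, held 1 octamer match. They were the only 2 with such a match among the 31 Wnt genes whose windows were used. The octamer was in 1.74% of 32851 windows of the whole table. It was searched for after these sequences had been read, so that share is no test of a link with the decrease. Dkk1, which was lower by more, held no octamer match, but 2 Tcf/Lef matches and a TATA box. A Tcf/Lef match was found in windows of 5 Wnt genes (Dkk1, Fzd7, Wnt11, Wnt3 and Wnt5b) and in 16.9% of all windows, and a TATA box in windows of 4 (Dkk1, Dkk2, Fzd1 and Wnt11) and in 8.32% of all windows. Wnt9a held no match, and 83.3% of its bases were G or C with 58 CpG pairs. Windows of Wnt genes had a median GC content of 66.3% and a median of 25 CpG pairs, compared with 52.7% and 7 over the whole table. Sfrp2 had 66.0% and Lgr4 58.3% GC.

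The 23 Wnt genes below the array median had higher group means of 2.90 to 5.48. They were Wnt1, Wnt2, Wnt2b, Wnt3, Wnt3a, Wnt5b, Wnt8a, Wnt8b, Wnt9b, Wnt10a, Wnt10b and Wnt16, all 4 R-spondin genes, Fzd4, Lrp5, Lgr5, Rnf43, Sfrp5, Wif1 and Dkk4. RMA gives no detection call, so whether these transcripts were present cannot be read. With the array labelled replicate 1 left out their differences lay between -0.89 and 0.46. Rspo1 and Wnt8a, singled out after their values were seen, were the 2 with all 3 mutant arrays below both WT arrays. This counts only the probe set standing for each gene. Rspo1, a ligand of Lgr4, read 4.77, 3.86 and 4.25 in Trip12 mut/mut, against 4.87 and 5.02 in WT. Wnt8a, a ligand of the primitive streak, read 4.49, 3.84 and 4.18, against 4.54 and 4.88 in WT. Neither passed (adjusted p = 0.748 for both over all 5 arrays, 0.121 and 0.191 with the array labelled replicate 1 left out).

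For 8 genes a further probe set lay above the array median, 14 probe sets in all, and 11 of these had the sign of the gene's main probe set on replicates 2 and 3. Wnt5a was higher at all 3 such probe sets, by 0.83, 0.66 and 0.87, and Fzd2 by 0.32, 0.36 and 0.19. Dkk3 was higher at both of its probe sets, by 0.39 and 0.52. The other Fzd3 probe sets showed smaller differences, -0.29, -0.21 and -0.20, than the -0.56 of the main one. Sfrp1 had one at 0.33 beside others at 0.12, -0.04 and 0.15. Sfrp2, Wnt9a, Fzd1, Lgr4 and Dkk1 rest on 1 probe set above the median.

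**Figure D4:**
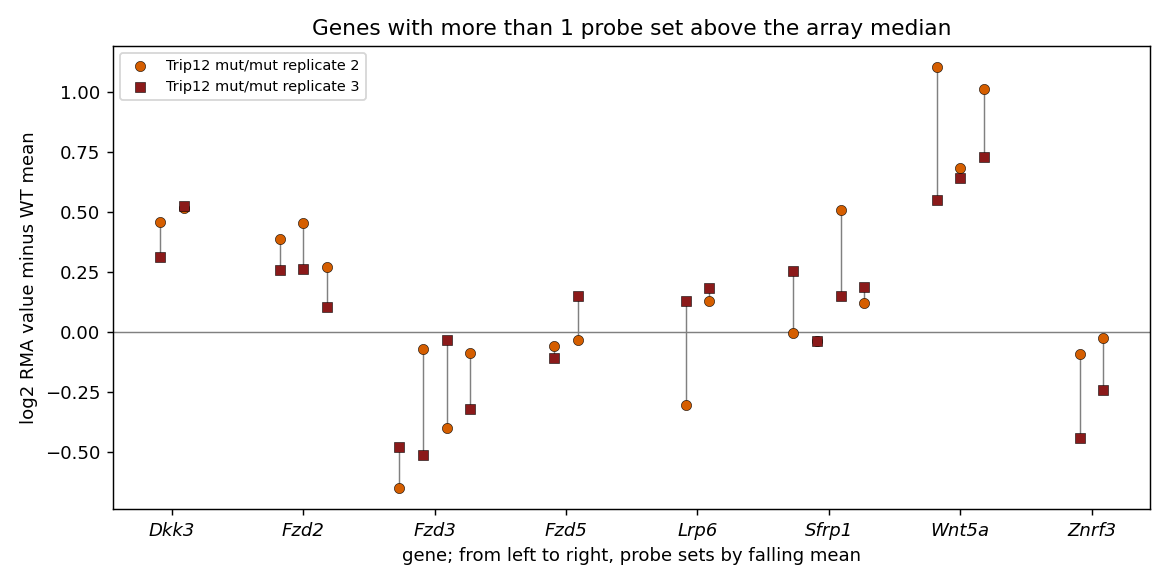
For the 8 genes with more than 1 probe set above the array median (x axis), the log2 RMA value on Trip12 mut/mut replicates 2 and 3 minus the WT mean of the same probe set (y axis). All probe sets of Wnt5a, Fzd2 and Dkk3 lie above 0 and those of Fzd3 and Znrf3 below, while Fzd5, Lrp6 and Sfrp1 have values on both sides.

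Other parts of the pathway were taken as 3 lists of genes by role. Over all 5 arrays 0 genes passed in any of them. Members said to change did so with the array labelled replicate 1 left out and with dim genes removed, where 3.29% of all genes rose and 1.34% fell. Of 28 signal transducers inside the cell, 24 were tested and 1 fell, the nuclear factor Lef1, with 9.45, 7.47 and 7.29 in Trip12 mut/mut, against 9.51 and 9.38 in WT (difference -1.37 over all 5 arrays and -2.06 with the array labelled replicate 1 left out, adjusted p = 0.034, or 0.0785 over all genes). Axin2, a scaffold of beta-catenin destruction and a common Wnt target, read 6.81, 6.72 and 6.62, against 6.84 and 6.88 in WT, and did not pass (adjusted p = 0.203). Bcl9, a beta-catenin co-factor, read 5.54, 5.22 and 5.30, against 5.85 and 5.63 in WT (adjusted p = 0.081, or 0.136 over all genes). On replicates 2 and 3 it was below the array median, so, like Dkk1, it met the dim filter through the WT arrays alone. Nkd1, an inhibitor of Dishevelled proteins, was dim, with 4.85, 4.97 and 4.99 in Trip12 mut/mut, against 4.42 and 4.86 in WT. The median difference of the list was 0.02 over all 5 arrays.

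Of 19 secretion and surface partners, 13 were tested, 1 rose and 1 fell, beside 3.29% and 1.34% of all genes. Sdc4, a heparan sulphate proteoglycan that fibroblasts also carry, read 10.56, 11.63 and 11.44 in Trip12 mut/mut, against 10.58 and 10.58 in WT, and rose by 0.95 (adjusted p = 0.042, or 0.0785 over all genes, with 0.63 over all 5 arrays). The glypican gene Gpc3, named after its value was seen, read 9.13, 8.52 and 8.48 in Trip12 mut/mut, against 9.02 and 9.15 in WT, and fell by 0.59 (adjusted p = 0.049, or 0.0834 over all genes, with -0.38 over all 5 arrays). Cer1, a secreted antagonist of Nodal, BMP and Wnt proteins, read 5.91, 5.70 and 5.53, against 5.91 and 6.22 in WT (adjusted p = 0.142). Dkkl1, a relative of Dkk3, and Sost, an Lrp5 and Lrp6 inhibitor of bone, were dim, with differences of 0.27 and -0.24 over all 5 arrays. Of 13 planar cell polarity genes, 11 were tested and 0 passed, with a median difference of -0.011 over all 5 arrays. The 4 with the smallest p over all 5 arrays were Invs (0.22), Ankrd6 (0.11), Prickle1 (-0.23) and Fuz (0.15), given as differences.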

How the data were processed

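Per the labels' protocols, 6 µg of total RNA per sample were labelled with biotin for Affymetrix arrays. Per the submitters' processing notes, the deposited log2 values were made by the authors with RMA (version not given in the sources used here), 1 value per probe set and array, with replicates not pooled. Array medians were 5.51 to 5.55, so these values cannot show a global shift. Precision is limited by having 5 arrays. Of 45101 probe sets, 64 controls were left out. The platform annotation gave 1 gene symbol to 34945, several to 932 and none to 9160, and 34741 symbols were updated by gene number through a RefSeq table (GRCm38.p6). Only probe sets with 1 symbol named a gene.

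Differences were fitted in R 4.3.3 with limma 3.58.1 (lmFit and eBayes, genotype as the term, two-sided, Benjamini-Hochberg over all genes, threshold 0.05). The dim filter kept genes with at least 2 arrays above 5.52, the median of all probe sets. The Wnt genes and lists were chosen with earlier results of these data known. Every Wnt gene with a group mean at or above 5.52 is given per array, and of each other list the 4 genes with the smallest p. Alternatives are given in the closing section. On data simulated over 18193 genes with the spread of all 5 arrays, the procedure made 13 false calls and recovered 89 of 100 genes given a log2 change of 2 and 60 of 100 given 1. Over 11626 genes, without Trip12 mut/mut replicate 1 and with dim genes removed, it recovered 83 and 54, with 3 false calls. How many genes it recovers over all 5 arrays when the array labelled replicate 1 stays at the WT level was not tested. Trip12 had that pattern and did not pass over all 5 arrays (difference 1.41, SE 0.78, limma adjusted p = 0.748). The 5-array recovery therefore cannot be carried over to such genes. Plots were made in Python 3.11.15 with matplotlib 3.10.9.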

Additional observations from a re-analysis of the deposited data

How the results depend on the processing

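The count of 0 Wnt genes past the threshold, and of 0 genes in all, held in limma under each alternative but 1: quantile normalisation, centred array medians, a robust variance trend, weighting of arrays, a replicate block, the dim filter alone, averaged probe sets, the most variable probe set, a fit over all probe sets, and each array left out in turn (0 to 0). The smallest adjusted p of a Wnt gene in these ranged from 0.0785 to 0.987. The exception, dim probe sets removed and without Trip12 mut/mut replicate 1 together, gave 4 Wnt genes and 539 genes, with differences of -1.16 for Sfrp2, -1.0 for Lgr4, 0.72 for Fzd1 and 0.55 for Wnt9a.

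The median difference over the 50 Wnt genes was -0.023 with quantile normalisation, -0.019 with centred medians, 0.00012 with dim probe sets removed, 0.01 with the replicate block, -0.0105 with the mean of probe sets, 0.0011 with all probe sets, -0.00899 with dim probe sets removed and without Trip12 mut/mut replicate 1, and between -0.015 and 0.01 with 1 array left out. Its sign is therefore not settled. The fibroblast median stayed between 0.23 and 0.54 with 1 array left out.

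Small differences changed sign. With the probe set of largest SD, Fzd5 was at 0.0011, Fzd6 at 0.27 and Wnt7a at -0.053, and with the mean of probe sets Fzd6 was at 0.084 and Wnt7a at -0.014. Wnt11 was at -0.0093 with quantile normalisation and -7.34e-05 with centred medians. With array weights Lrp6 was at 0.00085. With the replicate block Wnt11 was at -0.066, Sfrp1 at -0.013 and Wnt4 at 0.0061, and the same values were found without replicate 3, which is alone in its block. Wnt11 was at -0.0029 without WT replicate 2. With 1 array left out in turn, the ranges were -0.055 to 0.0041 for Fzd6, -0.12 to 0.015 for Fzd8, -0.168 to 0.051 for Lrp6, -0.013 to 0.124 for Sfrp1, -0.066 to 0.094 for Wnt11 and -0.132 to 0.0061 for Wnt4. The cause was not tested. Without Trip12 mut/mut replicate 1, chosen after the data were seen, 26 Wnt genes and 8035 genes did not overlap WT, compared with 9 and 2187. Groups of fewer arrays separate more easily, so these counts are not like for like.

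The replicate numbers were shared by only 2 pairs, whose deviations from the group means correlated at -0.05 and -0.08 across genes. With only 2 WT arrays their deviations mirror each other, so these values cannot show whether the paired samples shared more than a number. With the block, 0 Wnt genes and 133 genes had an unadjusted p under 0.05, against 2 and 214 without it. Leaving out the array labelled replicate 1 raised the sizes of several differences by over 1.5 times, among them those of Sfrp2, Lgr4, Fzd1 and Wnt5a, whose smallest sizes with another array left out were -0.53, -0.42, 0.32 and 0.24.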

Other observations

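Wnt genes lie in neighbouring pairs in the mouse genome, and 4 such pairs without another protein-coding gene between them were found in the RefSeq table. Their values on Trip12 mut/mut replicates 2 and 3 relative to WT are given here, and in each pair 1 gene or both were below the array median. Wnt9a differed by 0.55 while its neighbour Wnt3a, on chromosome 11, differed by -0.11 with arrays that overlapped WT. Wnt6 differed by 0.32 and its neighbour Wnt10a, on chromosome 1, by 0.19. For Wnt3 and Wnt9b, also on chromosome 11, the values were -0.31 and 0.01, and for Wnt10b and Wnt1, on chromosome 15, -0.21 and 0.03. A further dim probe set of Wnt9b differed by -0.52, with all 3 mutant arrays below both WT arrays. These differences are without the array labelled replicate 1, and that between neighbours was not tested.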
